A study of Mus musculus with 20 samples.

Results

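The MCM helicase and replication licensing genes described here are Mcm2, Mcm3, Mcm4, Mcm5, Mcm6, Mcm7, Mcm10, Cdc6, Cdt1 and Cdc45. They were chosen by name for their role in starting DNA replication and not by their values, though with earlier results of these data known. The 10 genes are part of a table of 25869 genes. All 10 were measured in each of the 20 libraries and passed the filter on low counts in each comparison.

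The products of Mcm2 to Mcm7 form a ring of 6 different subunits, the core of the DNA helicase of eukaryotic cells. In G1 the origin recognition complex, CDC6 and CDT1 load the ring onto DNA in an inactive form, which is called licensing, and in S phase kinases and firing factors turn it into an active helicase by adding CDC45 and the GINS complex, with MCM10 needed for the step. Dividing cells express these genes under the control of E2F transcription factors, and cells that leave the cycle turn them down, so they are widely used as markers of proliferation in tissues and tumours.

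The libraries came from mouse embryonic fibroblasts (MEFs, made from E14 embryos), B lymphomas and B cell leukaemia. Of the 10 MEF libraries, 2 were WT, 2 were dCas9a-SAM KI/+ without an sgRNA (no-guide), 2 were dCas9a-SAM KI/+ with the non-targeting sgRNA sgNT, and 4 were dCas9a-SAM KI/+ with sgRNAs that activate Bcl-2, with 2 libraries from each of 2 MEF lines. The titles of the latter end in BCL2_1 and BCL2_2 in each line. They do not say whether these are different sgRNAs or replicates of the same sgRNA. dCas9a-SAM is a knocked-in CRISPR activator that needs an sgRNA to find a gene. The 6 lymphoma cell lines (lines 14 to 19 by their label number) and the 2 primary tumours (20 and 21) were Eµ-Myc/dCas9a-SAM KI/+/sgBcl-2, that is, they carried Myc driven by the immunoglobulin heavy chain enhancer in B cells, the activator and an sgRNA for Bcl-2. They grew in irradiated mice that had received transduced blood stem and progenitor cells. Lines 14 to 17 and both tumours are labelled IgM positive, and lines 18 and 19 IgM negative. The 2 preB acute lymphoblastic leukaemia (preB-ALL) libraries are labelled BCR-ABL1, with 2 different Erg and Cre constructs in their titles. Each is thus the only library of its construct. They carried neither dCas9a-SAM nor Eµ-Myc by their labels, were grown with IL7, and had their RNA extracted with another kit. MEFs, lymphoma lines and leukaemia cells were grown in different media, and no drug treatment of a group is described. The paper describes MEFs infected with the non-targeting sgRNA. It does not state whether the sequenced MEFs were drug-selected for an sgRNA. No label gives the separate cultures or animals behind the MEF libraries beyond the line number, so p-values measure the spread between these libraries, which may be partly technical.

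Depth was between 12474885 and 26678417 reads per library. Bcl2 stood at 46.8 to 71.8 CPM (reads of a gene scaled to the same total in every library) in the sgBcl-2 MEFs and at 13.4 and 13.7 CPM with sgNT. The summed level of 12 fibroblast markers was 21100 to 29100 CPM in 9 MEF libraries. WT MEF 2 stood apart with 9980 CPM, and its 8 macrophage markers summed to 231 CPM against 5.63 to 9.06 CPM in the other MEF libraries. The 8 B cell markers summed to 1070 to 2020 CPM in the lines, 5410 and 5880 CPM in the tumours and 3710 and 6840 CPM in the preB-ALL libraries. In the preB-ALL libraries the fibroblast markers also reached 5930 and 2550 CPM, with only Dcn at 0 in both, while they summed to at most 52.2 CPM in the lines and tumours.

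The genes lie on 7 chromosomes (GRCm38). Mcm3 and Mcm6 are on chromosome 1, Mcm10 on 2, Mcm7 on 5, Mcm2 on 6, Mcm5 and Cdt1 on 8, Cdc6 on 11, and Mcm4 and Cdc45 on 16. Mcm7 overlaps Ap4m1 and 3 miRNA genes, and Cdc45 overlaps Ufd1 and Gm52240. The library kit does not mark strand, so reads on bases that overlapping genes share cannot be told apart. Ap4m1 reached at most 29.2 CPM in any library and lay below Mcm7 in each. Ufd1 stood at 57.9 to 74.96 CPM in the MEFs, where Cdc45 was at 4.46 to 15.3 CPM, and at 45.5 to 90.7 CPM in the lymphoma and leukaemia libraries, so that the Cdc45 values may hold reads of Ufd1. RefSeq promoter windows (GRCm38.p6, 250 bases before to 50 after each start) were matched for 9 of the 10 genes, with 2 windows for Mcm7. They were searched on both strands for the E2F words TTTCCCGC, TTTCGCGC, TTTGCCGC and TTTGGCGC, since E2F factors are the textbook regulators of these genes. Of the 10 windows, 6 held a word (Mcm3, Mcm5, Mcm6, Mcm7, Cdc6 and Cdt1), against 744 of all 32851 windows (2.26%). The windows of Mcm2, Mcm10 and Cdc45 and the second window of Mcm7 held none of these letters. In Mcm5 and Mcm6, 2 words on opposite strands overlap by 4 bases and are shown as 1 run of capitals. The 180 bases before the start are shown for the 4 genes with a word there, on the strand of the gene and with the E2F words in capitals, so that a word of the other strand reads as its reverse complement. They lie at chr1:128359706-128359885 (minus strand), chr8:75109329-75109508 (plus), chr5:138171884-138172063 (minus) and chr11:98907971-98908150 (plus).
Mcm6: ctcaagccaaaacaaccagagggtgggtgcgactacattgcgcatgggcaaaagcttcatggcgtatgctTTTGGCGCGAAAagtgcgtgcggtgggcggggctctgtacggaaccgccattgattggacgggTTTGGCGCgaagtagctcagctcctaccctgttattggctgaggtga
Mcm5: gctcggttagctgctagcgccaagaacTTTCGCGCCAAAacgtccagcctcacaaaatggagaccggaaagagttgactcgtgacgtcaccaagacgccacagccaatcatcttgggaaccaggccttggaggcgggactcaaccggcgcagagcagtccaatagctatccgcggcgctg
Mcm7: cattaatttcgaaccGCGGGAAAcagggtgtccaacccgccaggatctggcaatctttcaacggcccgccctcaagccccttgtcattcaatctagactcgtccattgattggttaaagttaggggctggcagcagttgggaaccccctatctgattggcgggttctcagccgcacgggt
Cdc6: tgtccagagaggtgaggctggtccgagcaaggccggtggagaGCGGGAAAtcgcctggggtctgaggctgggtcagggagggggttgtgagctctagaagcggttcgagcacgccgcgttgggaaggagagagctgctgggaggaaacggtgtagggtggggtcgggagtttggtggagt

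In Mcm3 and Cdt1 the words lie after the start, and the word with up to 10 bases on either side is shown. They lie at chr1:20820276-20820303 and chr1:20820263-20820284 (minus strand) and chr8:122568037-122568064 (plus), and Mcm7 held a further word beginning 17 bases after its start, which shares 1 base with a CCAAT word.
Mcm3 at the first word: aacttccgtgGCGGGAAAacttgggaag
Mcm3 at the second word: cttgggaagtTTTGGCGCcaag
Cdt1: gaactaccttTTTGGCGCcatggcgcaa

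Other words were searched on both strands as well. CCAAT, the word bound by NF-Y, was in 8 of the 10 windows (37.4% of all windows), CACGTG, the E-box word that MYC can bind, was in 0 of 10 (7.15%), and the CHR words TTTGAA and TTCGAA were in 3 of 10 (19.2%). E2F words were also in 7 of 24 windows of replisome genes, 2 of 8 of firing factors, 2 of 9 of the origin recognition complex and the 1 window of a GINS gene. The 9 windows of mitotic and proliferation genes held CHR words in 8, CCAAT in 9 and E2F words in 1. A match is a description of the letters and no measure of binding.

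Divided by transcript length, the 6 ring subunits stood above the other 4 genes in the mean of every group but the WT MEFs, where Cdt1 lay above Mcm3 and Mcm5. In the lymphoma lines Mcm7 was highest with 196 ± 33.5 CPM per kb (SD, n = 6), followed by Mcm3 with 156 ± 27.1, Mcm5 with 135.0 ± 19.4, Mcm6 with 131 ± 31.6, Mcm2 with 119.8 ± 7.05 and Mcm4 with 95.7 ± 9.94. The ranges of neighbours in this order overlapped, with Mcm4 (87.3 to 114 CPM per kb) and Mcm2 (112 to 132 CPM per kb) meeting only at their edges. Cdt1 (67.8 ± 5.70), Cdc45 (44.0 ± 11.4), Mcm10 (23.7 ± 2.12) and Cdc6 (18.4 ± 3.12) came below the ring, and of these only Cdt1 with Cdc45 and Mcm10 with Cdc6 overlapped. In the sgBcl-2 MEFs the same 6 ring genes led with 6.25 to 13.8 CPM per kb, and Mcm10 and Cdc6 were last with 0.963 ± 0.137 and 0.896 ± 0.200 CPM per kb (n = 4). The order of these last 2 genes turned when coding length was used, and it was the reverse in the no-guide and sgNT MEFs.

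**Figure D1:**
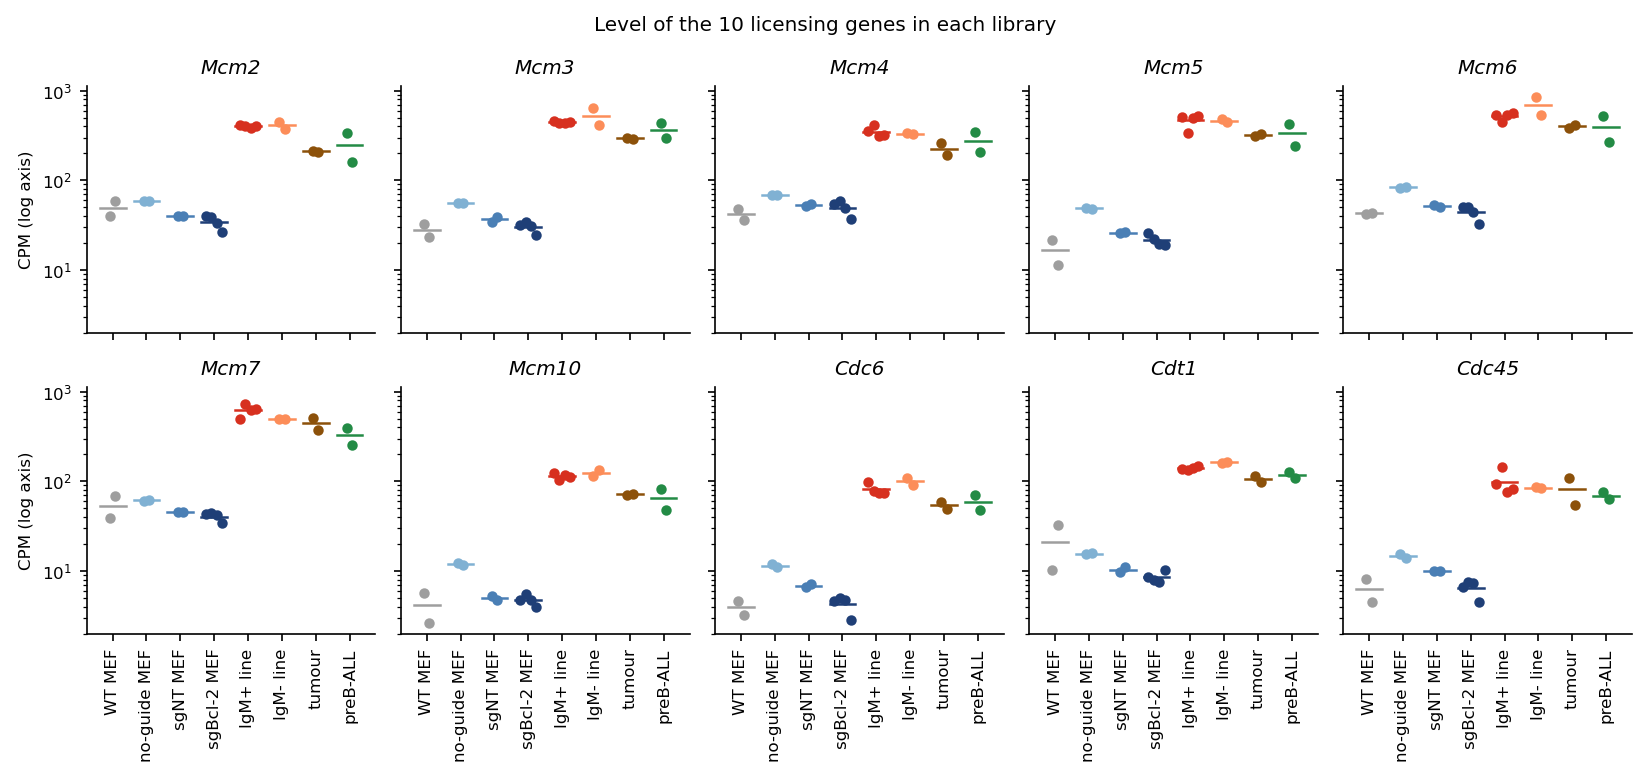
CPM of each of the 10 genes on a log axis in the 20 libraries, with a point for each library and a bar at the group mean. All lymphoma, tumour and preB-ALL points lie above all MEF points for each gene, and the no-guide MEFs are the highest dCas9a-SAM MEFs.

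The ring subunits are needed in equal numbers in the complex, but their transcripts were not equal, and the balance of the sgBcl-2 MEFs was not that of the lymphoma lines. Mcm4 made up 21.4 ± 0.923% of the summed CPM per kb of Mcm2 to Mcm7 in the 4 sgBcl-2 MEF libraries and 11.5 ± 1.45% in the 6 lymphoma lines. Mcm5 had the reverse pattern, with 9.78 ± 1.01% in the sgBcl-2 MEFs and 16.2 ± 2.43% in the lines. The ranges of both did not overlap between these groups (Mcm4 20.2 to 22.4% and 9.92 to 13.8%, Mcm5 8.89 to 10.8% and 11.9 to 18.3%). Mcm6 had like shares in both, with 15.8 ± 0.657% and 15.6 ± 2.73%, close to an equal share. With coding length these were 19.6% and 19.3%, and without division by length 20.1% in both, above an equal share. The tumours (Mcm4 10.0 and 12.3%) and preB-ALL (13.5 and 13.7%) were on the side of the lines, but the MEF groups also differed among themselves. In the no-guide MEFs Mcm4 was at 17.5% and Mcm5 at 12.8 and 13.1%, within the range of the lines for Mcm5, and in the WT MEFs Mcm4 was at 14.0 and 20.7%. The highest subunit of the no-guide MEFs was 1.47 times the lowest by group means, against 1.72 in preB-ALL and 2.05 in the lines, but without division by length it was 1.72 times, against 1.6 and 1.69. Within WT MEF 2 the highest subunit, Mcm7, stood 6.94 times above the lowest, Mcm5, the widest gap of the 20 libraries.

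**Figure D2:**
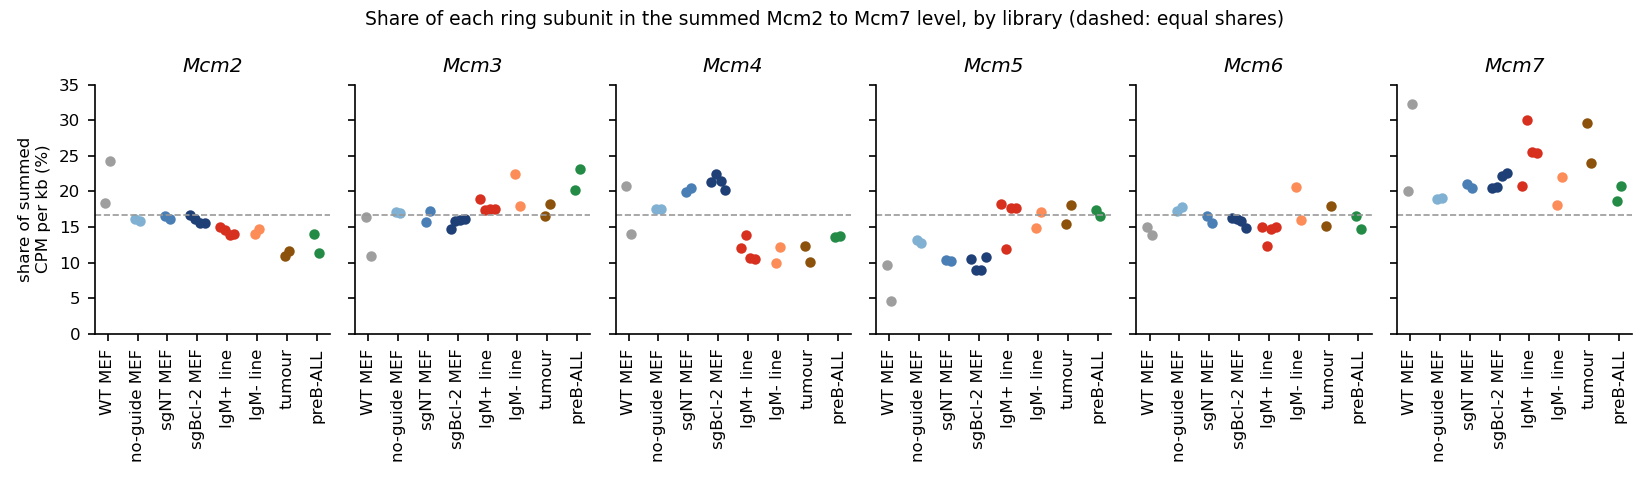
Share of each ring subunit in the summed CPM per kb of Mcm2 to Mcm7, in percent, with a point for each library and a dashed line at equal shares. Mcm4 lies above the line and Mcm5 below it in the sgBcl-2 MEFs, and the lymphoma lines have Mcm4 below the line.

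The lymphoma lines were first set against the sgBcl-2 MEFs, which carry the same activator and an sgRNA for the same gene but are another cell type without the Myc transgene. All 10 genes were higher in the lines, by 6.18 to 21.5 times, and no library of one group reached the other, as for 36.4% of all genes in this direction. Among the ring genes, Mcm5 stood at 25.8, 22.3, 19.5 and 18.9 CPM in the 4 sgBcl-2 MEF libraries and between 340.2 and 518 CPM in the lines, with a median of 491. Mcm4 was at 54.1, 58.2, 49.0 and 36.8 CPM in the MEFs and between 313 and 411 CPM in the lines, with a median of 333. These genes gave the largest and the smallest difference within the ring, with log2 fold changes of 4.25 ± 0.149 (SE) and 2.63 ± 0.118. The other 4 ring genes lay between them, from 3.37 for Mcm2 to 3.77 for Mcm3.

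The loading factors differed by similar amounts. Cdc6, which recruits the ring to origins, was at 4.58, 4.97, 4.73 and 2.87 CPM in the sgBcl-2 MEFs and at 73.3 to 110.2 CPM in the lines (log2 fold change 4.17 ± 0.186). Cdt1, its partner in loading, was at 8.55, 7.98, 7.64 and 10.3 CPM and at 134 to 166 CPM (3.92 ± 0.115). Of the factors for activation, Mcm10 had the largest change of all 10 genes, from 4.75, 5.61, 4.77 and 3.94 CPM in the MEFs to 103 to 133 CPM in the lines (4.42 ± 0.119), and Cdc45 went from 6.70, 7.49, 7.43 and 4.46 CPM to 76.4 to 143 CPM (3.65 ± 0.184). By limma with Benjamini-Hochberg adjustment over 14620 genes, all 10 passed, with adjusted p between 9.99e-11 and 2.83e-08. In this comparison 36.3% of all genes were called higher and 45% lower, so a call by itself says little, but the median of the 10 genes was 3.71 against -0.27 for all genes tested. Leaving out the TMM factor moved the median of all genes to -0.10, and the median of the members to 3.89.

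Genes that work with the ring were higher as well. All 24 replisome genes were called higher, with a median log2 fold change of 3.03, led by Lig1, the ligase that joins Okazaki fragments (307 ± 15.3 CPM in the lines, 24.2 ± 2.30 CPM in the MEFs), and Pold1, the catalytic subunit of DNA polymerase delta (242 ± 36.4 and 17.8 ± 1.10 CPM). All 4 GINS genes passed, with Gins1 at 3.81 and Gins3 at 2.09 on the log2 scale. Of the 11 firing factors 10 were higher, with Ticrr, which brings GINS and CDC45 to the ring, at 4.26 and the kinase gene Cdc7 at 3.43. The origin recognition complex changed less, with 5 of 6 genes higher and a median of 1.74, Orc2 at 2.14 and Orc5 at 1.93. Of 3 tested relatives of the ring, Mcm8 was higher by 2.62 and Mcmbp by 1.92.

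The brakes on licensing moved in both directions. Dtl, which targets CDT1 for destruction, was at 205 ± 47.0 CPM in the lines and 7.90 ± 1.49 CPM in the sgBcl-2 MEFs, and Gmnn, the inhibitor of CDT1, at 86.4 ± 20.4 and 6.98 ± 1.44 CPM. Cul4a, a scaffold of the ligase that DTL serves, was lower by 1.53 on the log2 scale, and 4 genes of the list were higher and 2 lower in all. Of 8 E2F genes 5 were higher, led by the activator E2f2 with 288 ± 106 CPM in the lines and 0.755 ± 0.0825 CPM in the MEFs, and by E2f8 with 90.9 ± 25.1 and 5.15 ± 0.714 CPM. All 10 mitotic and proliferation genes were higher, with Top2a at 3.81 and Aurkb at 3.82 on the log2 scale. Of 7 cell cycle inhibitor genes 4 were lower and 0 higher, among them Cdkn1a (5.38 ± 5.78 CPM in the lines, 668 ± 55.3 CPM in the MEFs) and Cdkn2b (0.437 ± 0.888 and 111 ± 13.3 CPM).

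**Figure D3:**
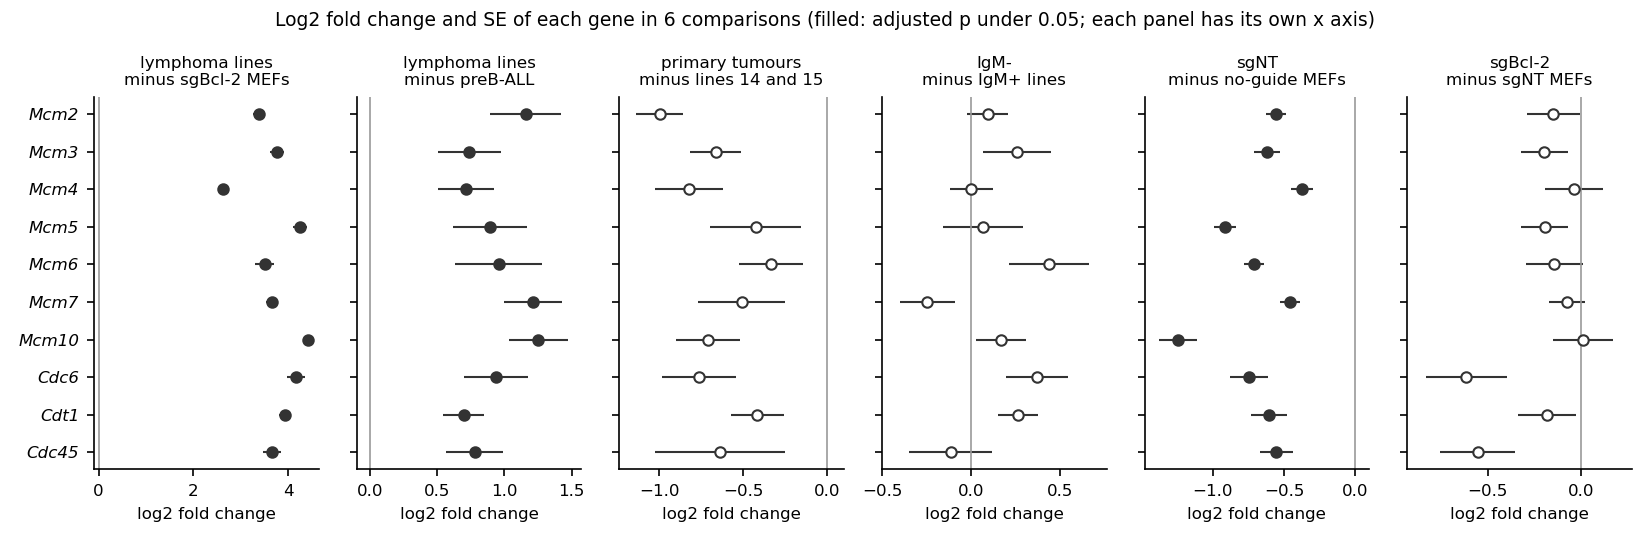
Log2 fold change with its SE for each gene in 6 comparisons, each with its own x axis, where filled points passed an adjusted p of 0.05 in limma. All 10 points are filled for the lines against sgBcl-2 MEFs, the lines against preB-ALL and sgNT against no-guide MEFs, and all are open in the other 3 comparisons.

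The second comparison of the lines was with preB-ALL, another dividing B cell malignancy. All 10 genes were called higher in the lymphoma lines, but by far less, and the 2 preB-ALL libraries differed from each other. Mcm10 was at 82.5 and 48.3 CPM in preB-ALL and between 103 and 133 CPM in the lines. Mcm7 was at 396 and 257 CPM and between 496 and 736 CPM, and Mcm2 at 338 and 159 CPM and between 379 and 445 CPM. For these 3 genes, as for 15% of all genes in this direction, no library of one group reached the other, and they had the largest log2 fold changes (1.25 ± 0.221, 1.21 ± 0.219 and 1.16 ± 0.264). For Mcm3, Mcm4, Mcm5 and Mcm6 the groups overlapped, since preB-ALL 1 reached 439, 349, 431 and 518 CPM and lay within the range of the lines. Cdc6 (70.9 and 47.8 CPM), Cdt1 (128 and 108 CPM) and Cdc45 (75.3 and 63.3 CPM) lay below all 6 lines.

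Adjusted p was between 0.00246 for Mcm10 and 0.042 for Mcm6 by limma over 13961 genes, of which 20.9% were called higher and 22.5% lower. The median of the 10 genes was 0.91, and that of all genes -0.07. These calls changed with the scaling. With CPM left unscaled the median of all genes was -0.42, that of the members 0.55, and 3 genes passed (Mcm2, Mcm7 and Mcm10, beside 12.1% of all genes called higher), and the share of higher genes among all calls went from 48.1% to 27.8%. It also depended on preB-ALL 2, without which 3 genes passed beside 9.37% of all genes called higher, whereas 10 passed without preB-ALL 1 beside 17.5%, and 7 to 9 passed when any one of the 6 lines was left out. With the 2 tumours in place of lines 14 and 15, only Mcm7 passed of the 10, beside 11.0% of all genes called higher. PreB-ALL 1 held the higher level of all 10 genes, by 1.19 to 2.12 times, and also had the higher sum of fibroblast markers (5930 against 2550 CPM), and their part in the result was not tested. The RNA kit and growth medium differ between the groups. The preB-ALL libraries also had the lowest depth of all libraries, with 14970269 and 12474885 reads against 20083235 to 26678417 in the lines. Their library names follow another scheme as well. The part of kit, medium, depth and any difference in sequencing run cannot be told apart from that of the disease.

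Of the genes around the ring, 15 of 24 replisome genes were higher in the lines than in preB-ALL (median 0.65, with Timeless at 0.67 and Rfc5 at 1.23), 6 of 11 firing factors (median 0.72, with Recql4 at 1.34 and the cyclin gene Ccne2 at 2.15) and 4 of 6 genes of the origin recognition complex (median 0.68, with Orc2 at 1.07 and Orc5 at 0.91). None of the 4 GINS genes passed, with values between -0.35 and 0.42, although GINS and CDC45 act in the same complex. Mcm8 and Mcmbp were higher by 1.34 and 0.90. Of the brakes 3 of 7 passed, with Dtl at 205 ± 47.0 CPM in the lines and 116 ± 43.5 CPM in preB-ALL, and of the E2F genes 3 of 8 passed, among them E2f1 with 90.3 ± 13.8 CPM in the lines and 49.6 ± 2.18 CPM in preB-ALL, and E2f4. Of the mitotic genes 7 of 10 passed, including Ccnb1 (1.06) and Aurka (0.99). Cdkn1a and Cdkn1b were lower in the lines, by 3.97 and 0.78 on the log2 scale, as 2 of 3 inhibitor genes that passed.

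Within the lymphomas, the comparison of IgM-negative with IgM-positive lines called none of the 10 genes. The largest estimates were 0.44 for Mcm6 (95% interval -0.10 to 0.98), 0.37 for Cdc6 (-0.05 to 0.80) and -0.25 for Mcm7 (-0.62 to 0.13). Cdt1 was the 1 gene of the 10 whose groups did not overlap, as for 22.6% of all genes, with 160.0 and 166 CPM in lines 18 and 19 and 139, 134, 141 and 149.7 CPM in lines 14 to 17, and its interval was -0.01 to 0.54 (adjusted p = 0.453 in limma). By limma 0.597% of all genes were called here. None of the 10 had an unadjusted p under 0.05, beside 1397 of all 12386 genes, and edgeR, DESeq2 and limma-voom also called 0 of them. The intervals of 8 of the genes reached past 0.5 in size on the log2 scale, so differences of that size were within what 2 IgM-negative lines allow.

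The 6 lines differed from each other most for Mcm6 and Cdc45, whose highest line stood 1.89 and 1.87 times above the lowest, and least for Mcm2 (1.17 times). Line 18 held the highest Mcm6 and Mcm3, with 846 and 635 CPM against at most 558 and 464 CPM in the other lines. Line 15 held the highest Mcm7 (736 CPM), Mcm4 (411 CPM) and Cdc45 (143 CPM) and the lowest Mcm5 (340.2 CPM). Mcm3 and Mcm6 share chromosome 1, and Mcm4 and Cdc45 share chromosome 16, and other genes of these chromosomes were high in the same lines. Mcm6 was 0.70 and Mcm3 0.57 above the median of the lines in line 18 on the log2 scale, and the 490 other genes of chromosome 1 had a median of 0.54 there (quartiles 0.33 and 0.70).

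In line 15, the 580 other genes of chromosome 5 had a median of 0.45 with Mcm7 at 0.28, and the 291 genes of chromosome 16 a median of 0.34 with Mcm4 at 0.19 and Cdc45 at 0.63. Mcm5 was the exception, since it was 0.65 below the median of the lines in line 15 while chromosome 8 was at -0.02, and Cdc6 was 0.44 above it in line 18 with chromosome 11 at 0.02. Subtracting the chromosome's median reduced the SD over the 6 lines from 0.25 to 0.06 for Mcm3, from 0.35 to 0.16 for Mcm6 and from 0.29 to 0.15 for Cdc45. The SD changed little for Mcm7, with 0.21 before and 0.19 after, for Mcm5, with 0.27 and 0.26, and for Mcm2, with 0.10 and 0.11. Of 120 pairs of line and chromosome, 11 had a median of at least 0.3 in size, and the typical size was 0.017. DNA was not measured, and the part of gene copies in these levels was not tested. This look at chromosomes was chosen after the values of the genes had been seen.

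**Figure D4:**
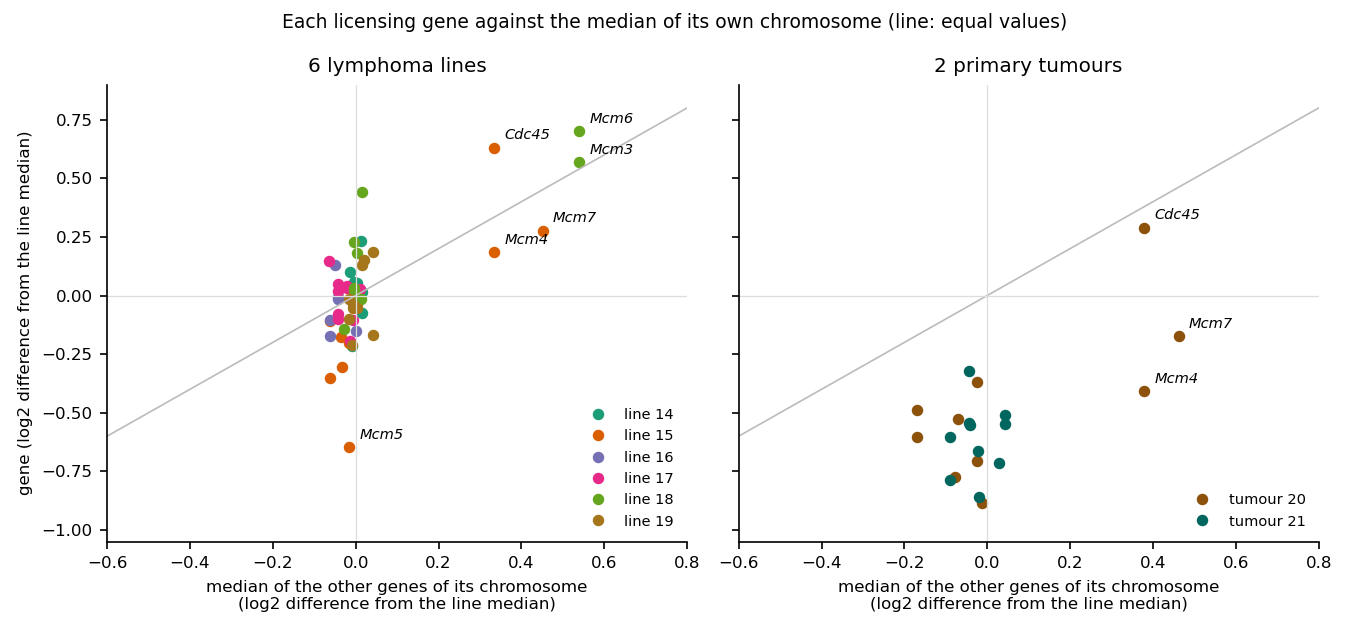
Log2 difference of each gene from the median of the 6 lines (y axis) against the median difference of the other genes of its chromosome in the same library (x axis), for the 6 lines and the 2 tumours, with a line at equal values. Mcm3 and Mcm6 of line 18 and Mcm4, Mcm7 and Cdc45 of line 15 lie to the right, while Mcm5 of line 15 is low with its chromosome near 0.

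The primary tumours were compared with lines 14 and 15, which came from the same 2 mice. All 10 genes had lower means in the tumours, and for 8 of them the groups did not overlap. With 2 libraries against 2, this was so for 57.1% of all genes tested, made up of 31.1% higher and 26% lower in the tumours. Mcm2 had 211.5 ± 5.08 CPM in the tumours and 408 ± 2.09 CPM in the lines (SD, n = 2). In single libraries Mcm2 was at 215 and 208 CPM in tumours 20 and 21 and at 409.6 and 407 CPM in lines 14 and 15, and its log2 fold change of -0.997 was the largest. Mcm4 (259.7 and 189.7 CPM against 352 and 411 CPM), Cdc6 (58.8 and 48.9 CPM against 99.1 and 78.5 CPM), Mcm10 (70.8 and 72.4 CPM against 125 and 103 CPM) and Mcm3 (295 and 292 CPM against 464 and 435 CPM) also did not overlap, with log2 fold changes of -0.82, -0.77, -0.71 and -0.66. For Mcm7 and Cdc45 the groups overlapped, since tumour 20 was high for both, with 515 and 108 CPM against 375 and 55.1 CPM in tumour 21.

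No gene of the 10 passed in limma. The lowest adjusted p was 0.0665 for Mcm2, and 0.33% of all 12719 genes were called. An unadjusted p under 0.05 was found for 5 of the 10, and for 3295 of the 12719 genes. DESeq2 called 5 of the 10 (Mcm2, Mcm3, Mcm4, Mcm10 and Cdc6) as lower beside 8.34% of all genes, and edgeR and limma-voom called 0. The labels give the mice of the tumours in 2 ways that contradict each other. When tumours and lines were paired by the mouse numbers in the titles, 7 of the 10 genes passed as lower (all but Mcm5, Mcm6 and Cdt1) beside 15% of all genes, and when paired by the descriptions 0 passed. In the values, tumour 20 resembled line 15, its partner by the titles. Chromosomes 5, 12 and 16 had medians of 0.45, -0.41 and 0.34 from the median of the lines in line 15. The same chromosomes were at 0.46, -0.47 and 0.38 in tumour 20, against -0.04, 0.11 and -0.09 in tumour 21. Chromosome 4 did not match, at 0.46 in tumour 20 and 0.07 in line 15. The inhibitor gene Cdkn2a was at 276 CPM in line 15 and 329.5 CPM in tumour 20, against 0.0811 CPM in line 14 and 1.10 CPM in tumour 21. Against all 6 lines, 6 passed as lower (Mcm2, Mcm3, Mcm4, Mcm10, Cdc6 and Cdt1) beside 10.2% of all genes.

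Cdc45 and Mcm7, higher in tumour 20 than in tumour 21, lie on chromosomes that differed in the same way. Chromosomes 16 and 5 had medians of 0.38 and 0.46 in tumour 20, and of -0.09 and -0.04 in tumour 21. Measured from its chromosome, each gene was lower in both tumours than the median of the lines, from -0.09 for Cdc45 in tumour 20 to -0.88 for Mcm2 in the same tumour. All 10 estimates of mitotic and proliferation genes were below 0 (median -0.56, 0 called), and 23 of 24 replisome estimates were below 0 (median -0.40, 0 called). Markers of other cells also differed. The 8 macrophage markers summed to 28.2 and 19.4 CPM in tumours 20 and 21 against at most 6.15 CPM in the lines, with Adgre1 at 13.3 and 6.33 CPM and at 0 in all 6 lines. The 8 T cell markers summed to 64.7 and 34.6 CPM against 7.34 and 62.7 CPM in lines 14 and 15. However, 7 of the 8 stayed under 1 CPM in both tumours, as did 7 of the 8 in all 6 lines. The tumour sums were thus mostly those of 1 gene. The part of these cells was not tested, and in bulk samples fewer dividing cells cannot be told apart from less RNA per cell.

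In the MEFs, the libraries with sgNT were compared with those without an sgRNA to see what a guide with no target does. All 10 genes were called lower with sgNT. Mcm10 was at 12.2 and 11.6 CPM without an sgRNA and at 5.26 and 4.76 CPM with sgNT, a log2 fold change of -1.25 ± 0.135. Mcm5 was at 49.5 and 48.1 CPM and at 26.0 and 26.3 CPM (-0.91 ± 0.078), Cdc6 at 12.0 and 11.0 CPM and at 6.63 and 7.16 CPM (-0.75 ± 0.135), and Mcm4, with the smallest change, at 68.3 and 68.5 CPM and at 51.9 and 54.8 CPM (-0.37 ± 0.075). No gene of the 10 overlapped between the groups, as for 35.1% of all genes in this direction. Adjusted p in limma was between 0.000133 and 0.00733, while 20.9% of all 14655 genes were called lower, and the median of the 10 genes was -0.61 against 0.00 over all genes.

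The genes around the ring followed. All 10 mitotic and proliferation genes were called lower (median -0.92), with Mki67, the usual proliferation marker, at 184 and 171 CPM without an sgRNA and at 67.9 and 76.96 CPM with sgNT. Of the firing factors 10 of 11 were lower (median -0.82), of the replisome 16 of 24 (median -0.41), of the origin recognition complex 3 of 6, and of the 7 inhibitor genes 3 were higher and 1 lower. Of 12 fibroblast markers 7 were called higher and 1 lower, and their part was not tested. The 2 groups were each 1 library of each MEF line, and the no-guide cells are not described as infected. The guide, infection, any drug selection and time in culture thus cannot be told apart. When all 10 MEF libraries shared 1 estimate of spread, 0 of the 10 genes passed (2.78% of all genes called lower), and when the 8 dCas9a-SAM libraries did, without the WT MEFs, 8 passed (all but Mcm4 and Cdc45, beside 17.6% of all genes called lower), a fit chosen after seeing the data. Without no-guide MEF 1, Cdc45 did not pass (adjusted p = 0.0562 in limma).

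Between the sgBcl-2 and the sgNT MEFs none of the 10 genes passed. The 4 sgBcl-2 libraries and the 2 sgNT libraries differed by -0.08 for Mcm7 (95% interval -0.30 to 0.15), -0.15 for Mcm2 (-0.47 to 0.17) and 0.01 for Mcm10 (-0.36 to 0.38). Cdc6 and Cdc45 had the largest estimates, with 4.58, 4.97, 4.73 and 2.87 CPM for Cdc6 against 6.63 and 7.16 CPM with sgNT (-0.61, interval -1.11 to -0.12), and 6.70, 7.49, 7.43 and 4.46 CPM for Cdc45 against 9.99 and 10.1 CPM (-0.55, interval -1.01 to -0.10). Of the 10 genes 5 did not overlap between the groups (Mcm2, Mcm5, Mcm7, Cdc6 and Cdc45), as for 44% of all genes. All 5 were lower with sgBcl-2, as for 30.9% of all genes in this direction. Only 1 of the 10 estimates, that of Mcm10, was above 0, and their median was -0.166 against -0.013 over all genes. Of the 10, Cdc6 and Cdc45 had an unadjusted p under 0.05, as did 4286 of all 14676 genes. Their adjusted p was 0.104 and 0.11 in limma, where 10.8% of all genes were called and 0 of the 10. edgeR, DESeq2 and limma-voom called 0 as well. When the libraries of each MEF line were summed and paired by line, Cdc45 passed (adjusted p = 0.0465 in limma), 1 of the 10 genes beside 17.6% of all genes. With CPM left unscaled the share of higher genes among all calls went from 60.9% to 38.4%, and 0 of the 10 genes passed.

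The 2 WT MEF libraries differed from each other in both directions. In WT MEF 2, Cdt1 was 3.14, Mcm7 1.77 and Mcm2 1.46 times the level of WT MEF 1 (32.3 against 10.3 CPM, 68.4 against 38.7 CPM and 58.7 against 40.2 CPM). Mcm10 and Mcm5 went the other way, at 0.464 and 0.532 times (2.66 against 5.73 CPM and 11.5 against 21.6 CPM), and so did Mki67 (13.6 against 47.8 CPM). WT MEF 2 is also the library with low fibroblast and high macrophage markers, with Lyz2 at 104 CPM against at most 4.34 CPM in the other MEFs, and their part in these levels was not tested.

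Against these WT libraries, 0 of the 10 genes passed for the no-guide MEFs and 0 for the sgNT MEFs, and limma called 0% of all genes in both. Unadjusted p was under 0.05 for 1081 and 589 genes, edgeR called 0, and DESeq2 called 188 and 88, none of the 10 among them. The no-guide MEFs had higher means than WT for 9 of the 10 genes, with Mcm5 at 49.5 and 48.1 CPM against 21.6 and 11.5 CPM (1.66 ± 0.425) and Mcm6 at 82.4 and 85.0 CPM against 42.6 and 43.4 CPM (1.00 ± 0.174). These calls turned on the WT library. Without WT MEF 2 all 10 genes passed as higher in the no-guide MEFs beside 16.8% of all genes, and without WT MEF 1, 7 passed as higher and Cdt1 as lower while 55.1% of all genes were called in either direction. For sgNT 10 passed without WT MEF 1, 7 as higher and Mcm2, Mcm7 and Cdt1 as lower, beside 53.4% of all genes, and 0 passed without WT MEF 2 beside 11.2%, with the lone WT library assumed to vary like the other group.

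Over all 20 libraries the 10 genes moved closely together, with Pearson correlations of log2 levels between 0.927 and 0.996 for their 45 pairs, which mostly reflect the gap between MEFs and B cells. Over the 10 MEF libraries alone 6 pairs were negative, with a lowest r of -0.356, and without WT MEF 2 the lowest was 0.5 and the median 0.927. Over the 10 lymphoma and leukaemia libraries r was between 0.417 and 0.953. Among 16483 genes, the 5 other genes most like the mean of the 10 over the 20 libraries were Hnrnpa2b1, an RNA-binding protein gene (r = 0.997), the helicase gene Blm (0.996), Ticrr (0.995), the condensin gene Ncapd2 (0.994) and Dtl (0.994). Of the 10 genes, Mcm3 was closest to the mean (0.997) and Cdt1 least (0.965, position 376 of all genes). These values describe libraries that share cell types and runs, and no test was made of them.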

How the data were processed

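Per the labels and methods, libraries were made with a kit that does not mark strand, and the authors aligned reads to GRCm38 with Rsubread, counted them per Entrez gene and deposited CPM for 20 libraries, without a log or scaling factor. Of the 25869 identifiers, 25242 matched a symbol. Dividing each library by its smallest step gave whole reads (100% of values within 0.01 of a whole number) and 12474885 to 26678417 reads per library (median 23229458). 

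As the deposited unit is CPM, limma (lmFit, eBayes with trend) was run on log2(CPM × TMM + 0.1) for the libraries of each comparison, on genes kept by edgeR's filterByExpr, with Benjamini-Hochberg adjustment over all genes and a threshold of 0.05. A fold change on this scale understates that of low genes. edgeR on the recovered reads called 8, 10, 0, 0, 0, 10, 0 and 0 of the 10 genes in the lines against preB-ALL, lines against sgBcl-2 MEFs, IgM-negative against IgM-positive lines, tumours against lines, sgBcl-2 against sgNT, sgNT against no-guide, no-guide against WT and sgNT against WT, and 5560, 11669, 24, 0, 1554, 6034, 0 and 0 genes in all. Tools were R 4.3.3, limma 3.58.1, edgeR 4.0.16, DESeq2 1.42.0 and matplotlib 3.10.9, and the code was tested on simulated data.

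Lengths are GENCODE M21 exon unions, and the gene models of the authors' counts may differ. Groups were taken as not overlapping where every CPM of one lay above every CPM of the other, counted over all genes tested. Chromosome medians used genes of at least 10 CPM on average over lines and tumours. No column was left unused. The members, lists and tests were chosen with earlier results of these data known. Named genes are the 10 members, up to 2 called genes in each direction per list with the smallest adjusted p and no overlap between groups in 3 comparisons (lines against preB-ALL, lines against sgBcl-2 MEFs, IgM-negative against IgM-positive lines), and the 5 genes most like the members. Bcl2, Mki67, Lyz2, Adgre1, Ap4m1, Ufd1, Cdkn2a and other marker or overlapping genes are named as checks, chosen after their values were seen.

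MEF line numbers in the labels pair the dCas9a-SAM MEF libraries. Deviations of same-numbered libraries from their group means correlated at 0.323 between sgNT and sgBcl-2 (0.16 without genes of X and Y), at -0.0457 between no-guide and sgNT, and at -0.131 between no-guide and sgBcl-2 over 15158 genes. WT and dCas9a-SAM MEFs share a number only (0.0484 to 0.179). All 10 genes' comparisons were also run with the other tools, scalings, filters, pseudocounts, thresholds, blocks and samples named in the closing section.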

Additional observations from a re-analysis of the deposited data

Results flagged for a closer look

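There were 30 sets of values, each of the 10 genes in the 4 sgBcl-2 MEF libraries, the 4 IgM-positive lines and all 6 lines. Of these, 4 held a library far from the rest, and chance gives about 1 in 20 for a single set. The sets share lines and genes of the same chromosome, so the count of 4 cannot be set against that rate. Mcm6 in line 18 was at 846 CPM, and the next of the 6 lines at 558 CPM. Mcm3 in the same line was at 635.3 CPM, with the next line at 463.5 CPM. Both genes are on chromosome 1, whose other genes were high in line 18. Cdc45 in line 15 was at 143.1 CPM, with the next of the 6 lines at 93.84 CPM, and other genes of its chromosome 16 were high there too. Mcm5 in line 15 was at 340.2 CPM, the lowest of the 4 IgM-positive lines, with the next at 500.5 CPM, and its chromosome 8 was not shifted in that line.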

How the results depend on the processing

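The lines against sgBcl-2 MEFs called all 10 genes under each alternative run, beside 24.0 to 39.7% of all genes called higher. The IgM comparison called 0 of the 10 under each. In the lines against preB-ALL the 10 calls became 3 without a scaling factor and 4 at an adjusted p of 0.01. They became 3 when the log2 fold change had to reach 1 in size and 1 with tumours in place of lines 14 and 15. In this order, 12.1%, 12.5%, 12.1% and 11.0% of all genes were called higher. For the tumours the 0 calls became 5 with DESeq2 and 7 with the block by titles, beside 8.34% and 15% of all genes called lower. They became 4 against the 4 IgM-positive lines and 6 against all 6 lines, beside 4.91% and 10.2%. For sgBcl-2 against sgNT, summing per line with the replicate block gave 1, beside 17.6% of all genes called. For sgNT against no-guide MEFs the 10 calls became 1 when the log2 fold change had to reach 1 in size (4.79% of all genes called lower). They became 0 with all 10 MEF libraries in the fit (2.78% called lower). For no-guide against WT MEFs the 0 became 5 in that fit, beside 3.01% of all genes called higher. The replicate block by MEF line alone left the number of genes called among the 10 as it was. Leaving out 1 library at a time gave 3 to 10 calls for the lines against preB-ALL, 9 to 10 for sgNT against no-guide, 0 to 10 for no-guide and for sgNT against WT, and 10 or 0, as in the full set, in the other 4. Apart from stricter thresholds and fewer libraries, the cause was not tested.

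The median of the 10 genes moved from 0.91 to 0.55 (lines against preB-ALL) and from 3.71 to 3.89 (lines against sgBcl-2 MEFs) without a scaling factor, to 3.52 with RLE in the latter, and from -0.61 to -0.59 with a pseudocount of 1 for sgNT against no-guide. With coding length, Mcm5 made up 10.9% of the ring in sgBcl-2 MEFs. The estimates that changed sign were all uncalled in the full set. Leaving out 1 library gave, in the IgM comparison, -0.036 to 0.248 for Mcm2 and -0.067 to 0.608 for Mcm3 (below 0 without line 18), and -0.098 to 0.16 for Mcm5 and -0.213 to 0.056 for Cdc45 (turned without line 15). For sgBcl-2 against sgNT it gave -0.068 to 0.082 for Mcm10 and -0.121 to 0.084 for Mcm4, and Mcm10 was at -0.079 without a scaling factor. Against WT MEFs it gave -0.871 to 0.541 for Cdt1 (no-guide) and, for sgNT, -0.463 to 0.16 for Mcm7 and -0.258 to 1.015 for Mcm10, each turned without WT MEF 2.

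Over all genes, limma, edgeR, DESeq2 and limma-voom called 74, 24, 749 and 1 in the IgM comparison and 42, 0, 2100 and 0 in that of the tumours. With all 10 MEF libraries in the fit, the calls went from 6029 to 901 for sgNT against no-guide and from 1592 to 64 for sgBcl-2 against sgNT. Of the estimates for the 10 genes under alternatives, 1369 kept direction and call, 74 lost a call, 55 gained one and 12 changed sign. Most groups held 2 libraries, which limits each comparison.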
